A study of Mus musculus with 11 samples.

Results

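The genes described here are 7 that mark pigment cells or their neural crest relatives: Dct, Tyr, Tyrp1, Pmel, Mitf, Sox10 and Kit. They were taken by symbol from RNA-seq count tables of mouse mitral leaflets, the flaps that separate left atrium from ventricle during a beat, and all 7 were found among the 24062 genes of the Ift88 table and the 26667 genes of the Dzip1 table. The 11 libraries fall into 4 groups. The first table holds 2 wild-type libraries, NfatC1Cre(+) with Ift88+/+, and 3 libraries labelled knockout, NfatC1Cre(+) with Ift88f/f. All 5 of these carry the Cre, which is named for Nfatc1, a gene of endocardial and valve endothelial cells, so deletion is limited to cells that have expressed it. The second table holds 3 Dzip1+/+ libraries and 3 Dzip1S14R/+ libraries, which carry 1 mutant and 1 normal allele and are written S14R/+ below. Ift88 encodes a carrier of intraflagellar transport, which builds cilia, and Dzip1 a protein at the base of cilia. The sources used here give no age, strain or coat colour, nor whether each library came from its own animal. The p-values therefore cover only the spread among libraries, which may be technical.

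Melanocytes arise from the neural crest, either directly or from Schwann cell precursors along nerves. The transcription factor Sox10 marks both lineages and helps to switch on Mitf, the regulator that turns on the pigment genes Tyr, Tyrp1, Dct and Pmel, while the receptor Kit carries survival and migration signals. Pigmented cells are known in mouse heart valves and septa. Mitf also has forms expressed in other cells, among them heart muscle, and Kit is also expressed by mast cells.

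The 3 members that encode pigment enzymes share a sequence element upstream of their RefSeq starts, which is shown here because Mitf is known to bind it in pigment genes. The element is the core of the M-box, CATGTG, or CACATG when read on the other strand, in capitals. Each line reads 5′ to 3′ on the strand of the gene, from RefSeq promoters on GRCm38.p6, with 120 bases for Dct and Tyr that end before the start and 30 for Tyrp1.
Dct, chr14:118052375-118052494, minus strand: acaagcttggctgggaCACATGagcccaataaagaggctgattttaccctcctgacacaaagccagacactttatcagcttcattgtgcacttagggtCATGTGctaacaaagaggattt
Tyr, chr7:87493513-87493632, minus strand: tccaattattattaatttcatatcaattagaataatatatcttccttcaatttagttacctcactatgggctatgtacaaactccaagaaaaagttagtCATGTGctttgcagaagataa
Tyrp1, chr4:80834155-80834184, plus strand: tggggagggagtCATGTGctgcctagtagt
The matches began 232 and 150 bases before the start of Dct, 21 before that of Tyr and 46 before that of Tyrp1, counted from the RefSeq starts. For Tyrp1 that start is 80834213, and GENCODE M21 has a further transcript from 80834123, inside which the match lies. Of all 32851 promoter windows, which run from 250 bases before to 50 after a start, 14.2% held CATGTG or CACATG on either strand. The related palindrome CACGTG stood in 7.15% of windows and in none of those of the members. The 3 windows of Mitf and the 2 of Kit held neither, and 5 of the 7 members had a window. A match is a description of letters, not a binding site.

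Total counts per library ranged from 23.4 to 53.8 M in the Ift88 table and from 75.1 to 93.5 M in the Dzip1 table. Levels are given as CPM, counts per M counts of the library. Of the targeted genes, Ift88 stood at 6.31 and 21.2 CPM in its wild type and at 3.03, 4.12 and 0.428 CPM in the knockout, lower in every knockout library (log2 fold change -2.48 ± 1.13 SE, adjusted p = 0.802 by edgeR). The labels do not say which of its exons are floxed. Dzip1 stood at 27.6 to 32.3 CPM in its wild type and at 28.0 to 29.5 CPM in S14R/+, in a design that changes a codon. Ift88 wild-type replicate 2 stands apart: the summed level of 15 cardiomyocyte genes was 199.9 CPM there, with Mb at 0, against 61398 CPM in replicate 1 and 31610.3 to 41936 CPM in the knockout. Wild-type replicate 1 stands apart too, with the highest cardiomyocyte sum of all 11 libraries and the lowest sums of 8 endothelial genes (216.7 CPM) and 9 valve interstitial genes (1585 CPM). The same sum was 41434 to 46048 CPM in the Dzip1 wild type and 47584 to 48003 CPM in S14R/+. By Xist and Y-linked counts, Ift88 knockout replicate 3 is male and the other 4 Ift88 libraries are female, while in the Dzip1 table the females are replicate 3 of the wild type and replicate 2 of S14R/+, and the other 4 are male. Fold changes below are mutant over wild type from edgeR's quasi-likelihood test with Benjamini-Hochberg adjustment over all tested genes and a threshold of 0.05.

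No member passed the test in the Ift88 knockout, although all 7 fold changes were positive. Their median was 0.69 on the log2 scale, beside -0.01 over the 14244 genes tested. Without knockout replicate 1 the median was 0.25 and 5 of 7 were positive, and without wild-type replicate 2 it was 0.98, again with 5 of 7. Leaving out wild-type replicate 1 or knockout replicate 3 gave 1.45 and 1.13 with all 7 positive. Only Pmel and Sox10 were higher in every knockout library than in both wild-type libraries. Over all genes tested, 15.4% stood higher in every knockout library, 7.55% stood lower, and 0% passed the edgeR test, so 2 of 7 members is a count to read against that background. At an unadjusted p under 0.05 the same test gave 856 genes, none of them members. DESeq2 called 2.22% of its 17127 genes, 381 in number, again with no member, and limma-voom called none.

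No member passed in Dzip1 S14R/+ either, and here the fold changes had no common sign, with 3 positive and 3 negative among the 6 members tested (median -0.03, beside 0.00 over all 16160 genes). Tyrp1 was left out by the filter on low counts. Dct and Pmel were lower in every S14R/+ library than in any wild-type library. The background for such a gap is 5.86% of tested genes lower in S14R/+ and 4.58% higher. These same members had an unadjusted p under 0.05, as had 3.53% of tested genes in that direction and 959 genes in either. Here edgeR called 0% of all genes, DESeq2 also 0% of 21010 with 987 under an unadjusted 0.05, and limma-voom none.

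**Figure D1:**
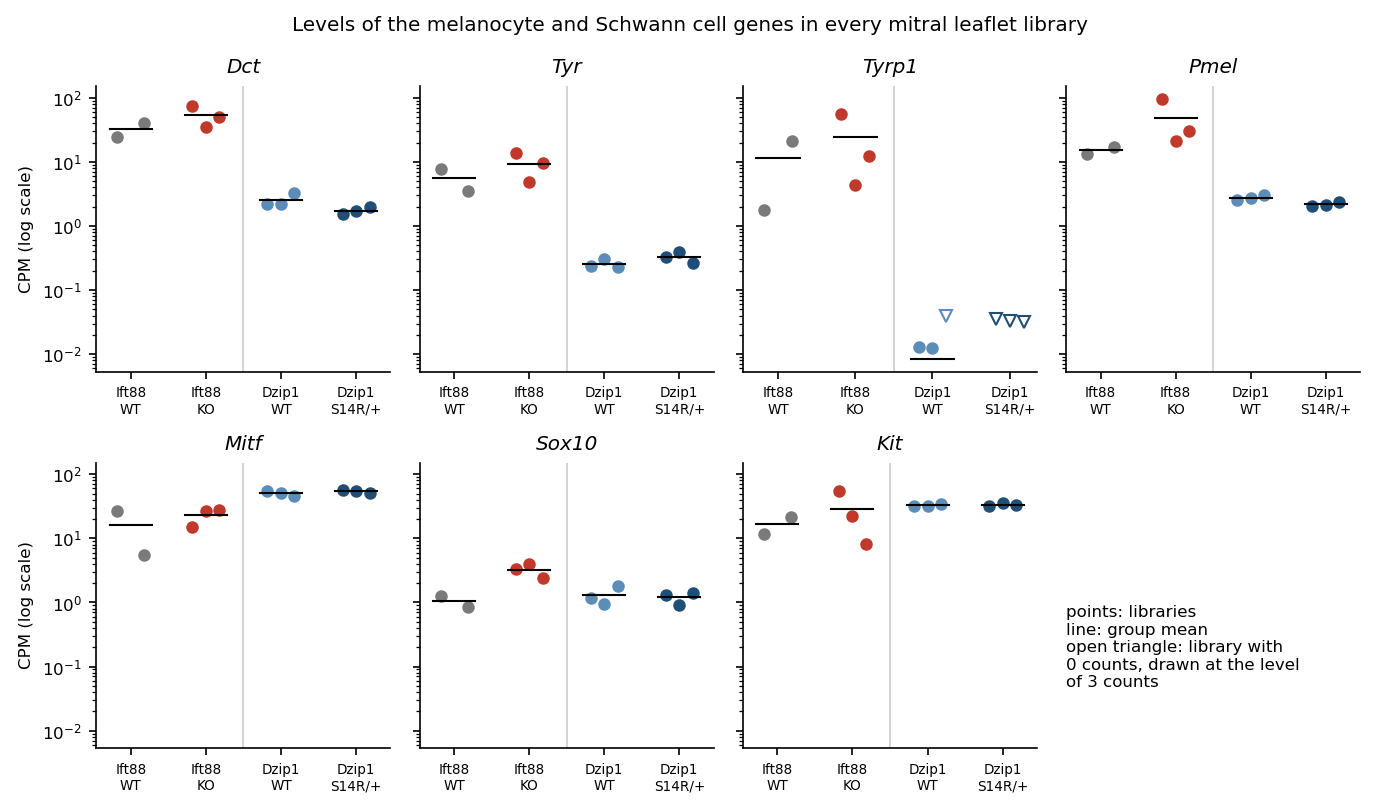
CPM of the 7 genes in every library on a log axis, by group, with the group mean as a line. Libraries with 0 counts of Tyrp1 are open triangles at the level of 3 counts. Dct, Tyr, Tyrp1 and Pmel sit higher in all 5 Ift88 libraries than in all 6 Dzip1 libraries, Mitf sits lower, and Kit and Sox10 overlap.

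Dct makes dopachrome tautomerase, which acts late in the synthesis of black eumelanin and is among the first pigment genes on in melanoblasts. The gene lies on chromosome 14 from 118012790 to 118052244, minus strand, in GENCODE M21 on GRCm38. In the Ift88 table it stood at 24.6 and 40.2 CPM in wild-type replicates 1 and 2 and at 75.4, 35.5 and 49.6 CPM in knockout replicates 1, 2 and 3. The groups overlapped, since knockout replicate 2 lay under wild-type replicate 2. The means were 32.4 ± 11 CPM (SD, n = 2) and 53.5 ± 20.2 CPM (SD, n = 3), and the log2 fold change was 0.64 ± 0.466 (SE, 95% interval -0.50 to 1.77, adjusted p = 0.883 by edgeR). Without knockout replicate 1 it was 0.25.

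Among Dzip1 libraries, Dct stood at 2.21, 2.17 and 3.27 CPM in the wild type and at 1.52, 1.73 and 1.97 CPM in S14R/+. The lowest wild-type and the highest S14R/+ library were thus close to each other, and wild-type replicate 3, which is female, lay furthest out. The means were 2.55 ± 0.624 and 1.74 ± 0.222 CPM (SD, n = 3 each). The fold change on the log2 scale was -0.53 ± 0.194 (SE, 95% interval -0.97 to -0.10), with an unadjusted p of 0.0205 that became 0.822 after edgeR's adjustment over all genes. Without wild-type replicate 3 the fold change was -0.33, and with the 4 male libraries alone it was -0.32, so its size moved by over 1.5 times on that library. These values rest on 592 counts in the wild type and 472 in S14R/+.

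Tyr makes tyrosinase, the enzyme that starts melanin synthesis, and lies on chromosome 7 from 87424771 to 87493512, minus strand. It stood at 7.64 and 3.51 CPM in the Ift88 wild type and at 13.5, 4.92 and 9.63 CPM in the knockout. Knockout replicate 2 lay between the wild-type libraries. This gave a log2 fold change of 0.55 ± 0.893 (SE, 95% interval -1.62 to 2.72, adjusted p = 0.957 by edgeR). Leaving out wild-type replicate 1 gave 1.45 and leaving out replicate 2 gave -0.0063, while dropping the first or second knockout library gave 0.13 and 0.87. Tyr had few counts in the Dzip1 table, 17 to 24 counts per library in the wild type and 25 to 35 in S14R/+. Its levels there were 0.242, 0.303 and 0.226 CPM in the wild type and 0.326, 0.387 and 0.267 CPM in S14R/+, and the groups overlapped. The log2 fold change was 0.35 ± 0.328 (SE, 95% interval -0.38 to 1.08, adjusted p = 0.888 by edgeR), opposite in sign to that of Dct.

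Tyrp1 makes a tyrosinase-related protein that stabilises tyrosinase in the melanosome, and lies on chromosome 4 from 80834123 to 80851719, plus strand. It was the most uneven member. In the Ift88 table it stood at 1.78 and 20.97 CPM in the wild type and at 56.5, 4.42 and 12.4 CPM in the knockout. Both groups therefore spanned a wide range and overlapped, with an SD above the mean in each (11.4 ± 13.6 CPM, n = 2, and 24.4 ± 28.1 CPM, n = 3). Its log2 fold change was 1.14 ± 1.34 (SE, 95% interval -2.12 to 4.41, adjusted p = 0.930 by edgeR), and it was -0.47 without knockout replicate 1. Leaving out wild-type replicate 1 gave 0.29, and leaving out replicate 2 gave 3.49. Tyrp1 in the Dzip1 table had 1 count in each of wild-type replicates 1 and 2 and 0 in the other 4 libraries, where 3 counts would be 0.0321 to 0.0399 CPM. Its 2 counts among 502.8 M give 0.000481 to 0.0144 CPM (exact 95% interval, counting error only), and no fold change between genotypes is given.

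Pmel makes the fibrils on which melanin is laid down in the melanosome. It lies on chromosome 10 from 128704195 to 128720238, plus strand, and shares 105 exon bases with Dgka on the opposite strand, so without a stated strand setting some reads of either gene could be counted for the other. It stood at 13.2 and 17.2 CPM in the Ift88 wild type and at 95.7, 21.5 and 29.9 CPM in the knockout. All 3 knockout libraries were above both wild-type libraries, and knockout replicate 1 was far above the rest. The means were 15.2 ± 2.86 CPM (SD, n = 2) and 49.0 ± 40.7 CPM (SD, n = 3). The log2 fold change of 1.59 ± 0.758 (SE, 95% interval -0.25 to 3.43) had an unadjusted p of 0.0786 and an edgeR adjusted p of 0.802, and it was 0.59 without knockout replicate 1.

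Among Dzip1 libraries, Pmel stood at 2.53, 2.74 and 3.03 CPM in the wild type and at 2.02, 2.14 and 2.40 CPM in S14R/+. Every S14R/+ library was lower, by a narrow margin between wild-type replicate 1 and S14R/+ replicate 3. The means were 2.77 ± 0.253 and 2.19 ± 0.190 CPM (SD, n = 3 each). The log2 fold change was -0.33 ± 0.142 (SE, 95% interval -0.64 to -0.01), with an unadjusted p of 0.0447 and an edgeR adjusted p of 0.828.

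**Figure D2:**
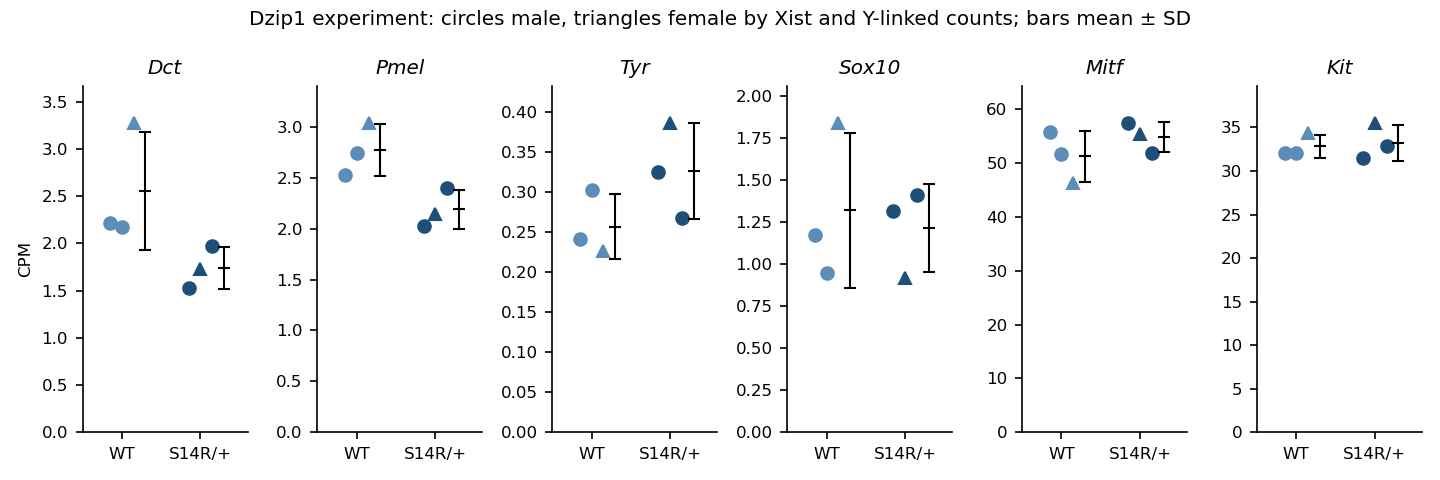
CPM of 6 members in the Dzip1 experiment on linear axes from 0, with circles for male and triangles for female libraries and bars for the mean ± SD. Dct and Pmel are lower in all 3 S14R/+ libraries, and the points of Tyr, Sox10, Mitf and Kit overlap.

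Mitf encodes the basic helix-loop-helix factor that directs melanocyte development. It lies on chromosome 6 from 97807052 to 98021349, plus strand, with 6 transcripts in the basic annotation that start far apart, and gene counts cannot say which of them was present. In the Ift88 table it stood at 26.3 and 5.58 CPM in the wild type and at 14.96, 26.5 and 27.6 CPM in the knockout. The low wild-type value belongs to replicate 2, the library nearly without cardiomyocyte transcripts. Its log2 fold change was 0.27 ± 0.809 (SE, 95% interval -1.69 to 2.24, adjusted p = 0.982 by edgeR). It was 2.05 without wild-type replicate 1 and -0.51 without replicate 2, so its direction rested on replicate 2. Without knockout replicates 1, 2 and 3 in turn it was 0.46, 0.17 and 0.13. With the mean level of the cardiomyocyte genes as a covariate it was -0.21. That level mainly sets replicate 2 apart from the other Ift88 libraries, so this fit is not a separate check. The part of heart muscle in the Mitf values was not tested. Among Dzip1 libraries, Mitf stood at 55.6, 51.6 and 46.2 CPM in the wild type and at 57.3, 55.3 and 51.8 CPM in S14R/+, which overlapped. That log2 fold change was 0.11 ± 0.0690 (SE, 95% interval -0.04 to 0.26, adjusted p = 0.848 by edgeR).

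**Figure D3:**
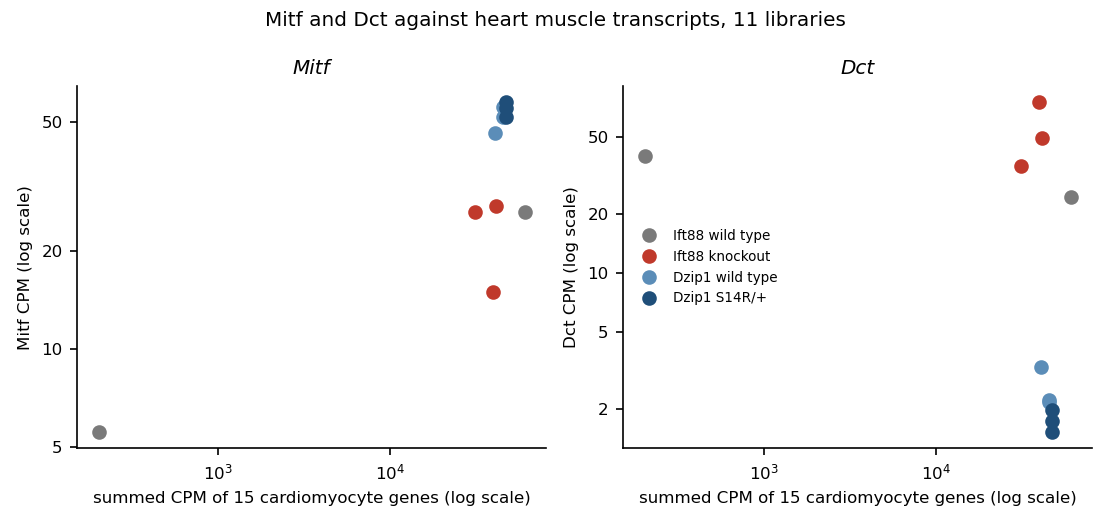
CPM of Mitf (left) and Dct (right) against the summed CPM of 15 cardiomyocyte genes in all 11 libraries, both axes log. Ift88 wild-type replicate 2, at 199.9 CPM of cardiomyocyte transcripts, has the lowest Mitf of all libraries, 5.58 CPM, while its Dct of 40.2 CPM lies within the range of the knockout.

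Sox10 encodes the neural crest factor shared by Schwann cells and melanocytes, and lies on chromosome 15 from 79154908 to 79165240, minus strand. It stood at 1.24 and 0.837 CPM in the Ift88 wild type, 39 and 45 counts, and at 3.35, 3.97 and 2.44 CPM in the knockout, 105, 160 and 57 counts. Every knockout library was higher, with means of 1.04 ± 0.287 CPM (SD, n = 2) and 3.25 ± 0.771 CPM (SD, n = 3). The log2 fold change was 1.47 ± 1.30 (SE, 95% interval -1.69 to 4.63, adjusted p = 0.904 by edgeR). It stayed between 1.08 and 1.97 as each library was left out. Among Dzip1 libraries, Sox10 stood at 1.17, 0.948 and 1.84 CPM in the wild type and at 1.31, 0.917 and 1.41 CPM in S14R/+, fully overlapping, with a log2 fold change of -0.10 ± 0.273 (SE, 95% interval -0.71 to 0.51, adjusted p = 0.962 by edgeR).

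Kit encodes the receptor for stem cell factor and lies on chromosome 5 from 75574916 to 75656722, plus strand. It stood at 11.8 and 21.9 CPM in the Ift88 wild type and at 54.2, 22.7 and 8.18 CPM in the knockout. The knockout held both the highest and the lowest library. This gave a log2 fold change of 0.69 ± 0.831 (SE, 95% interval -1.33 to 2.70, adjusted p = 0.933 by edgeR), against -0.27 and 1.13 when the first or the third knockout library was left out and 0.42 when wild-type replicate 1 was. Knockout replicate 1, the library highest in Kit, had a summed level of 9 mast cell genes of 34.6 CPM. That sum was 14.6 and 244.3 CPM in wild-type replicates 1 and 2 and 104.4 and 205.0 CPM in knockout replicates 2 and 3. The part of mast cells in the Kit values was not tested. Kit in the Dzip1 table stood at 32.0, 32.1 and 34.4 CPM in the wild type and at 31.4, 35.5 and 32.8 CPM in S14R/+. This was the narrowest estimate of all members, a log2 fold change of 0.03 ± 0.0573 (SE, 95% interval -0.10 to 0.16, adjusted p = 0.935 by edgeR).

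**Figure D4:**
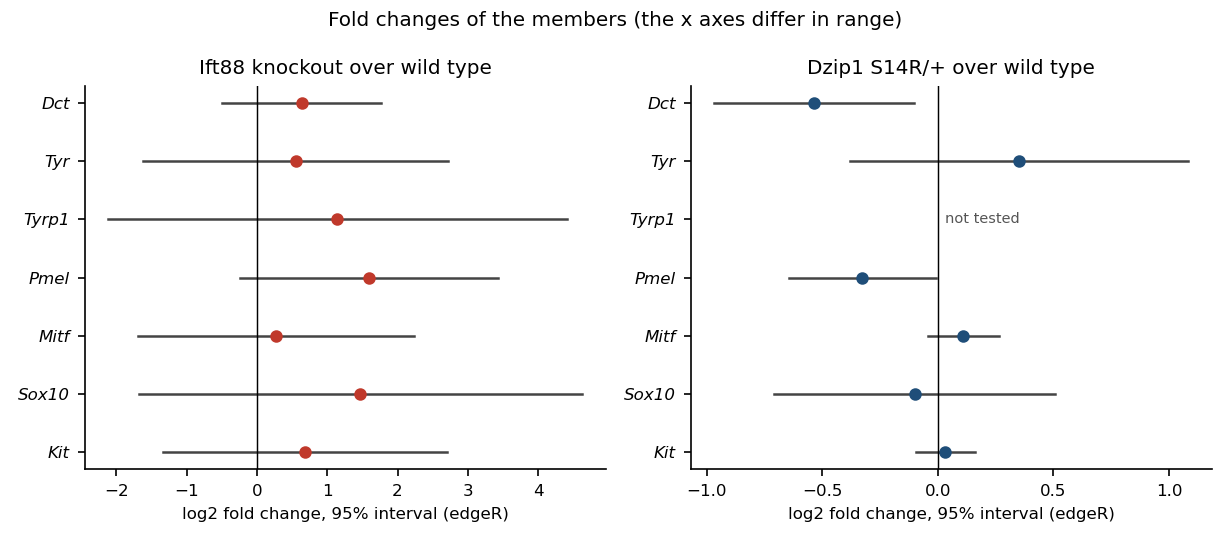
Log2 fold changes with 95% intervals from edgeR, Ift88 knockout over wild type on the left and Dzip1 S14R/+ over wild type on the right, on x axes of different range. All 7 Ift88 intervals cross 0, and in the Dzip1 experiment those of Dct (-0.97 to -0.10) and Pmel (-0.64 to -0.01) do not before adjustment.

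Knockout replicate 1 held the highest Dct, Tyr, Tyrp1, Pmel and Kit of all 11 libraries, while its Mitf was the lowest of the knockout. The balance among the pigment genes also varied between Ift88 libraries. Pmel counts over Dct counts were 0.534 and 0.428 in the wild type and 1.27, 0.604 and 0.603 in the knockout. Tyrp1 over Dct ran from 0.0724 in wild-type replicate 1 to 0.750 in knockout replicate 1. The summed level of 10 melanocyte marker genes, 4 of them members, was 52.6 and 107.2 CPM in the wild type and 79.9 to 267.7 CPM in the knockout, which overlap. In a bulk sample, fewer cells of a type and less RNA per cell cannot be told apart.

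**Figure D5:**
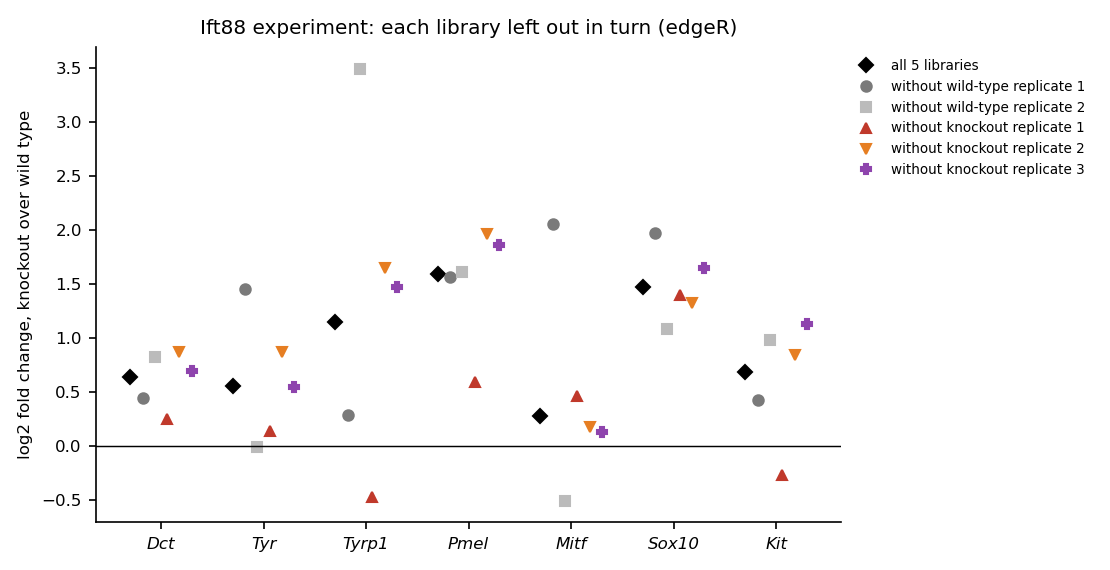
Log2 fold change of each member in the Ift88 experiment with all 5 libraries (diamonds) and with each library left out in turn. Dct, Pmel and Sox10 stay above 0 throughout, while Tyr, Tyrp1, Mitf and Kit each fall to or below 0 once.

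The order of the members differed between the tables. To compare genes, CPM was divided by the length of the longest transcript in kb. In the Dzip1 wild type Mitf led at 10.5 CPM per kb, followed by Kit at 6.26, Pmel at 1.30, Dct at 1.16, Sox10 at 0.474, Tyr at 0.0426 and Tyrp1 at 0.00311. Only Pmel and Dct did not separate in every library, and in S14R/+ the order was the same, with each gene above the next in all 3 libraries. In the Ift88 wild type Dct led at 14.7 CPM per kb, followed by Pmel at 7.12, Tyrp1 at 4.18, Mitf at 3.27, Kit at 3.21, Tyr at 0.923 and Sox10 at 0.374. There the neighbours from Pmel down to Kit did not differ beyond their spread. In the knockout, led by Dct at 24.3 and Pmel at 23.0 CPM per kb, only Mitf over Tyr separated in every library.

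The tables were deposited separately, so levels across them are set side by side without a test. Dct was 24.6 to 75.4 CPM in the Ift88 table and 1.52 to 3.27 CPM in the Dzip1 table. Tyr was 3.51 to 13.5 against 0.226 to 0.387 CPM and Pmel 13.2 to 95.7 against 2.02 to 3.03 CPM. Tyrp1 had 3424 counts among 180.2 M in the Ift88 table and 2 among 502.8 M in the Dzip1 table. These 4 genes were thus higher in every Ift88 library, as were 14.4% of the 18573 genes with a count that the tables share. The ratio of mean CPM was 20.98 for Dct, 26.9 for Tyr and 14.3 for Pmel, beside a median of 1.07 over 9336 genes with at least 50 counts in every Ift88 library. Among those 9336, only Tyrp1, G0s2 and the predicted gene Gm10845 had at most 1 count in every Dzip1 library, by limits chosen after the values were seen. Tyrp1 lies close to both limits, with a lowest Ift88 count of 56 and a highest Dzip1 count of 1. The limit of 50 counts was set on the Ift88 libraries alone, which favours genes high there, and the reverse count was not made. Mitf went the other way and was lower in every Ift88 library, as were 29.9% of shared genes, with a ratio of 0.381. What sets the tables apart besides genotype, such as age, strain or dissection, is not given, and its part was not tested.

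Other genes of pigment biology were followed through lists that bring in what the 7 members leave out. The list of melanosome and pigment genes, which includes 4 members, had 15 genes tested in the Ift88 table and 13 in the Dzip1 table, with 0 passing in each. In the Ift88 experiment 11 of the 15 were positive (median log2 fold change 0.55), and in the Dzip1 experiment 7 of 13 (median 0.01). Its most abundant genes were Atp7a, the copper pump that loads tyrosinase, Myo5a, the motor that carries melanosomes, and Rab32, a trafficking GTPase. Atp7a stood at 16.1 to 38.0 CPM in the Ift88 wild type and 65.9 to 98.7 CPM in the knockout (log2 fold change 1.61 ± 0.44 SE, edgeR adjusted p = 0.802). Myo5a stood at 0.539 to 1.497 CPM against 2.18 to 15.6 CPM (2.68 ± 1.39 SE, edgeR adjusted p = 0.818). Both were higher in every Ift88 knockout library, and both are expressed far beyond pigment cells. With Pmel, 3 of the 18 genes of the list were higher in every knockout library and 0 lower, beside 15.4% and 7.55% of all genes tested. In the Dzip1 table Atp7a went the other way, lower in every S14R/+ library, at 55.3 to 58.9 against 59.1 to 62.6 CPM (-0.07 ± 0.04 SE, edgeR adjusted p = 0.848). There 4 of the 18 genes were lower in every S14R/+ library and 1 higher, beside 5.86% and 4.58% of all genes tested. Here and for the lists below, such counts run over all genes of a list, also those not tested, while the background shares run over tested genes only. Rab32 overlapped in both experiments, in the Ift88 table at 18.5 to 44.4 and 21.2 to 29.9 CPM. Myo5a overlapped in the Dzip1 table, at 61.7 to 69.8 and 62.9 to 66.0 CPM.

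The complexes that sort cargo to melanosomes and other lysosome-related organelles were present in both tables, with no common sign of fold change. Of 15 genes tested, 5 were positive and 10 negative in the Ift88 knockout (median -0.24), and 7 positive and 8 negative in S14R/+ (median 0.00), with 0 passing in each. Ap3d1, a subunit of the adaptor AP-3, stood at 17.0 to 65.9 CPM in the Ift88 wild type and at 68.3 to 115.9 CPM in the knockout (log2 fold change 1.07 ± 0.56 SE, edgeR adjusted p = 0.818). Its partner Ap3b1 overlapped, at 34.6 to 51.5 and 50.6 to 110.8 CPM. Dtnbp1, of the BLOC-1 complex, stood at 63.5 to 114.9 and 49.9 to 87.0 CPM. Of the 15 genes, 2 were higher in every knockout library (Hps4 and Ap3d1) and 3 lower (Bloc1s1, Bloc1s4 and Bloc1s6). Over all genes tested, these shares were 15.4% and 7.55%.

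Signals and regulators of melanocytes, a list with Mitf, Sox10 and Kit in it, had 14 genes tested in the Ift88 table, of which 12 were positive (median 0.68), and 15 in the Dzip1 table, of which 9 were positive (median 0.01), with 0 passing in each. Ednrb, the endothelin receptor of migrating melanoblasts that endothelial cells also use, was the most abundant. It stood at 92.4 to 235.9 CPM in the Ift88 wild type and 144.6 to 318.4 CPM in the knockout, and at 181.6 to 196.4 and 189.3 to 210.3 CPM in the Dzip1 groups. Kitl, the ligand of Kit, overlapped in both experiments (14.2 to 42.3 and 23.5 to 45.0 CPM in the Ift88 table). Edn3, the ligand of Ednrb, and Mc1r, the melanocortin receptor, were at 0 in both Ift88 wild-type libraries, as was Edn3 in knockout replicates 2 and 3 and Mc1r in knockout replicate 1, and were picked after their values were seen.

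The melanocyte label rests on 10 marker genes. Of these, 8 had enough counts to be tested in the Ift88 table (6 positive, median 0.59) and 5 in the Dzip1 table (2 positive, median -0.33), with 0 passing. The members Dct, Tyr, Tyrp1 and Pmel are on this list, so it is not a check apart from them. Of the other genes tested in the Ift88 table, Slc24a5 (0.75) and Slc45a2 (0.05) were positive and Mlana (-0.32) and Trpm1 (-0.39) negative. The Dzip1 median is the value of Pmel. Besides the members, Mlana, a melanosome antigen, stood at 1.97 to 8.24 CPM in the Ift88 wild type and 1.02 to 8.005 CPM in the knockout, and Slc24a5, a melanosome ion exchanger, at 3.47 to 7.34 and 6.21 to 11.9 CPM. Oca2 and Gpr143, further defining genes, were at 0 in both Ift88 wild-type libraries, and so were Oca2 in knockout replicates 1 and 3 and Gpr143 in knockout replicates 2 and 3. In the Dzip1 table the summed level was 7.60 to 8.88 CPM in the wild type and 6.58 to 7.10 CPM in S14R/+. Mlana was lower there in every S14R/+ library, at 0.0642 to 0.155 against 0.173 to 0.216 CPM, on about 12 counts per library. Its log2 fold change was -0.94 ± 0.44 (SE, edgeR adjusted p = 0.828). Slc24a5 overlapped there, at 2.26 to 2.41 against 1.86 to 2.77 CPM (0.10 ± 0.17 SE, edgeR adjusted p = 0.931). Of the 10 genes, 3 (Dct, Pmel and Mlana) were lower in every S14R/+ library and 0 higher, beside 5.86% and 4.58% of all genes tested. Mlana and the genes of this paragraph were picked after their values were seen.

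The Schwann cell label was checked against a marker list. Of 22 Schwann and glial genes, 14 were tested in the Ift88 table (7 positive and 7 negative, median 0.00) and 18 in the Dzip1 table (5 positive and 13 negative, median -0.05), with 0 passing. The list was led by Ncam1, an adhesion molecule, Pmp22, a myelin protein, and Cnp, a myelin enzyme, all of which other cells also express. Ncam1 stood at 24.7 to 96.7 CPM in the Ift88 wild type and at 150.9 to 179.9 CPM in the knockout (log2 fold change 1.17 ± 0.68 SE, edgeR adjusted p = 0.844), and overlapped in the Dzip1 table at 151.7 to 168.5 and 146.8 to 158.5 CPM. Pmp22 overlapped at 153.2 to 338.7 and 184.4 to 305.4 CPM in the Ift88 table (-0.11 ± 0.41 SE, edgeR adjusted p = 0.985). So did Cnp, at 26.1 to 37.0 and 34.8 to 37.6 CPM (0.11 ± 0.36 SE, edgeR adjusted p = 0.983). Of the defining genes, Cdh19 was at 0 in all 5 Ift88 libraries and at 0.785 to 1.07 CPM in the Dzip1 table. Erbb3, the neuregulin receptor, stood at 23.3 to 29.1 CPM in the Dzip1 libraries and ran from 0 to 6.27 CPM in the Ift88 table, where the groups overlapped. Other genes of the list went the other way between the tables. S100b stood at 1.34 to 2.74 CPM in the Ift88 table and 0.166 to 0.396 CPM in the Dzip1 table. Fabp7 stood at 2.53 to 10.7 against 0.276 to 1.01 CPM. The sum of the 22 genes overlapped, at 306.8 to 596.5 CPM in the Ift88 table and 301.4 to 328.9 CPM in the Dzip1 table. These genes were picked after their values were seen.

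In S14R/+ the neural crest receptor Ngfr stood at 7.06 to 7.70 CPM against 8.75 to 12.3 CPM in the wild type (log2 fold change -0.42 ± 0.12 SE, edgeR adjusted p = 0.822), and Sox2, a factor of immature Schwann cells, at 0.838 to 1.10 against 0.481 to 0.648 CPM (0.83 ± 0.25 SE, adjusted p = 0.822 by edgeR). The groups did not overlap for either gene, and neither gene passed. Of the 22 Schwann and glial genes, 2 were higher in every S14R/+ library (Sox2 and Pou3f1) and 3 were lower (Ngfr, Prx and Dhh). Over all genes tested, these shares were 4.58% and 5.86%. Ngfr and Sox2 were picked after their values were seen.

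Genes of other cell types that the leaflet could hold were counted beside the members. Macrophage genes, 9 tested, were positive for 6 in the Ift88 knockout (median 0.78) and negative for 8 in S14R/+ (median -0.25). Their summed level was 169.3 and 344.2 CPM in the Ift88 wild type, 180.2 to 334.0 CPM in its knockout, 114.5 to 141.6 CPM in the Dzip1 wild type and 102.6 to 112.0 CPM in S14R/+. Valve interstitial genes were positive for 9 of 9 in the Ift88 knockout (median 1.53) and endothelial genes for 8 of 8 (median 1.00). The valve interstitial sum was 1585 and 6182 CPM in wild-type replicates 1 and 2 and 6732 to 10554 CPM in the knockout. The endothelial sum was 216.7 and 2045 CPM in the wild type and 1387 to 2519 CPM in the knockout, so wild-type replicate 1 was the low library in both. In S14R/+ they were negative for 8 of 9 (median -0.08) and for 4 of 8 (median 0.00). Cardiomyocyte genes were positive for 9 of 15 (median 0.14) and 14 of 15 (median 0.11). No gene of these lists passed the edgeR test, and their part in the members' values was not tested.

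Mast cell genes, which bear on Kit, were positive for 3 of 8 in the Ift88 knockout (median -0.82) and 2 of 4 in S14R/+ (median 0.03). Their summed level was 14.6 and 244.3 CPM in the Ift88 wild type, 34.6 to 205.0 CPM in its knockout and 5.26 to 6.80 CPM in the Dzip1 table. There the defining genes Tpsb2, Tpsab1 and Fcer1a were at 0 in all 6 libraries, and Cma1 and Ms4a2 in some. Cpa3, Mcpt4, Hdc and Il1rl1 had counts in all 6, and Kit was 31.4 to 35.5 CPM. Sympathetic neuron genes were positive for 3 of 5 (median 0.29) and 2 of 6 (median -0.09). Their summed level was 32.5 to 71.6 CPM in the Ift88 table and 159.9 to 167.4 CPM in the Dzip1 table. This sum weighs most on Hand2, with a mean of 6058 counts over the libraries of both tables, against 1645 for Gap43 and 498 for Stmn2. It is therefore not a measure of neuron content. Of pigmented tissues that could be carried over, retinal pigment epithelium genes summed to 0.0318 CPM (all Rpe65) and 6.47 CPM (all Best1) in Ift88 wild-type replicates 1 and 2. The sum was 0 to 0.159 CPM in the knockout, and none of the 4 genes was tested in that table. In the Dzip1 table the sum was 0.407 to 0.885 CPM. Rpe65 was at 0 in every Dzip1 library, while Rlbp1, Best1 and Lrat had counts in every one. Keratinocyte genes summed to 3.68 to 21.7 CPM, with Krt5 at 0 in all 5 Ift88 libraries. Krt10, the most abundant of them, was higher in every Ift88 knockout library, as were 15.4% of genes tested. Carry-over was not tested.

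Over the 6 Dzip1 libraries, Dct and Pmel ran together (Pearson r 0.946 on log2(CPM + 1), given as a description) and Mitf ran against Dct (r -0.899). The genes most like Dct among 14086 were Pla2g4a (r 0.996), Stx2 (0.990) and Casp12 (0.988). Csf1r, a macrophage receptor, was most like Pmel (0.992), followed by Als2cr4 (0.990) and ORF63 (0.983). For Mitf they were Greb1l (0.992), Rbm24 (0.984), which regulates splicing in muscle, and Usf2 (0.983). For Sox10 they were Mrps33 (0.994), Rpl10 (0.992) and Thoc6 (0.991), and for Kit Ndufa8 (0.984), Fam123a (0.983) and 0610011F06Rik (0.982). With 6 points that share genotype and library, such values are reached by many genes: 68 genes exceeded r 0.95 with Dct, 46 with Sox10, 38 with Mitf, 26 with Pmel and 12 with Kit.

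The authors' deposited table of the Ift88 comparison also lists the 7 members with positive log2 fold changes, from 0.14 for Mitf to 1.07 for Pmel, and with adjusted p-values from 0.574 for Pmel to 0.974 for Mitf.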

How the data were processed

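RNA of mitral leaflets was extracted with RNeasy kits, treated with DNase and made into SMART-Seq v4 libraries, per the labels' protocols. The Ift88 wild-type and knockout libraries are labelled as re-analysed. The tools named for build GRCm38 are HTSeq, DESeq, DESeq2, cutadapt 1.11 and FastQC 0.11.5, per the submitters' processing notes. Aligner, annotation and strand setting were not found in the sources used here. The deposited tables hold whole-number counts per gene and library, per the file headers. Beside them stand statistics made by the authors: a mean normalised signal (baseMean), a log2 fold change, a score (fold change divided by standard error) and p-values. The authors' log2 fold changes correlated with those computed here at Spearman's rho 0.946 over 14244 genes in the Ift88 table and at -0.543 over 16160 genes in the Dzip1 table. Which Dzip1 libraries they compare is not stated, so those statistics were not used.

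Counts were fitted per table with edgeR 4.0.16 in R 4.3.3 (TMM, filterByExpr, quasi-likelihood F test), threshold 0.05, and the steps were tested on simulated data. The biological coefficient of variation came to 87.7% for Ift88 and 7.85% for Dzip1, so intervals are wide in the first. The members, the 13 gene lists and the tests were chosen with earlier results of these data known. From each list the text names genes past the threshold, otherwise the 3 with the highest mean count, and for each member with a mean count of at least 50 in the Dzip1 table the 3 genes most like it; defining markers at or near 0 and the others were picked after their values were seen. Lists are described by counts and medians. Some list genes are not reported here by name. Asip was not matched in either table. Replicates are numbered in accession order. Alternatives were DESeq2 1.42.0, limma-voom (limma 3.58.1), other scalings, filters, left-out libraries and covariates. Intervals of fold changes cover the spread among libraries. The interval and limits of Tyrp1 counts cover counting error only.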

Additional observations from a re-analysis of the deposited data

How the results depend on the processing

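No member passed under any of the alternatives run, in either experiment. Of 105 alternative member values in the Ift88 experiment 98 kept their direction and 7 reversed, and of 89 in the Dzip1 experiment 85 kept it and 4 reversed. In the Ift88 experiment Tyr reversed to -0.0063 without wild-type replicate 2 and to -0.016 with only the libraries whose titles hold IR28N, and Mitf to -0.51, -0.65 and, with the cardiomyocyte level as a covariate, -0.21. Without knockout replicate 1, Tyrp1 reversed to -0.47 and Kit to -0.27. As each library was left out, the log2 fold change ranged from -0.0063 to 1.45 for Tyr, from -0.51 to 2.05 for Mitf, from -0.47 to 3.49 for Tyrp1 and from -0.27 to 1.13 for Kit. In the Dzip1 experiment it ranged from -0.017, without S14R/+ replicate 2, to 0.072 for Kit and from -0.28 to 0.20 for Sox10. The upper value of Sox10 came without wild-type replicate 3, and it was 0.07 without S14R/+ replicate 2 and 0.37 with the male libraries alone. The fold change of Pmel ran from 0.59 to 1.96 in the Ift88 and from -0.40 to -0.25 in the Dzip1 experiment, and that of Dct from 0.25 to 0.88 and from -0.63 to -0.32. The cause of each change was not tested.

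The count of all genes called in the Ift88 experiment, 0 by edgeR, was 381 by DESeq2 and ranged from 0 to 187 as each library was left out, the 187 without wild-type replicate 1. In the Dzip1 experiment it ranged from 0 to 10 as each library was left out, the 10 without wild-type replicate 2, and was 1 with the male libraries alone. The male subset and the cardiomyocyte covariate were added after seeing the data. Where 1 wild-type library was left, it was assumed to vary like the others. The labels give no shared replicate numbers. With the IR28N prefix as a covariate all 7 members stayed positive, with Kit at 0.15 and Tyrp1 at 1.69. In the Dzip1 table the low counts of Tyr and Tyrp1 limit precision.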
